A study of Mus musculus with 8 samples.

Results

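The 9 genes described here encode the chains of the interferon receptors (Ifnar1, Ifnar2, Ifngr1, Ifngr2 and Ifnlr1), the Janus kinases that these chains carry (Jak1, Jak2 and Tyk2) and Socs1, an inhibitor of those kinases. They were taken by gene symbol, and all 9 were found among the 24346 gene symbols of each library. The RNA came from the large intestinal stroma of 8 mice at an age of 12 weeks, sorted as live cells with podoplanin and without CD45, CD31 or EpCAM. In the cKO group (4 libraries, genotype Pdgfra cre; Il10ra flox/flox) a Cre recombinase under Pdgfra, a gene of intestinal fibroblasts, was combined with floxed Il10ra alleles. The WT group (4 libraries, genotype Il10ra flox/flox) carried the floxed alleles without the recombinase. The study asked, by its title, whether interleukin-10 receptor on fibroblasts restrains type I interferon signalling. Cre driven by Pdgfra acts in cells that express it or whose precursors did, so that other sorted cells of a cKO mouse can keep an intact Il10ra.

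Type I interferons bind Ifnar1 and Ifnar2, whose intracellular parts carry Tyk2 and Jak1. Interferon-gamma, the type II interferon, binds Ifngr1, which carries Jak1, and engages Ifngr2, which carries Jak2. Type III interferons bind Ifnlr1 together with Il10rb, the chain that is also part of the interleukin-10 receptor, and use Jak1 and Tyk2, as interleukin-10 itself does. The kinases phosphorylate STAT proteins, which drive the interferon response genes. Socs1 is induced by this signal and blocks the kinases.

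Expression was deposited as FPKM (fragments scaled by transcript length and by library depth), which allows levels of different genes to be compared per length. Detected genes (FPKM above 0) numbered 15815 to 16323 per library, at an estimated depth of 17800000 fragments. The fibroblast marker Dcn was at 6710 to 7345 FPKM in cKO libraries and 6691 to 7360 in WT libraries, and Pdpn, the gene of the sort marker, at 84.8 to 92.4 FPKM in cKO libraries and 90.4 to 94.7 in WT libraries. Il10ra, the floxed gene, was at 0.273 to 0.636 FPKM in cKO libraries and 0.403 to 0.842 in WT libraries (two-sided exact permutation p = 0.4). Since the deleted part is not named in the labels and the FPKM is for the entire gene, this does not check the genotypes. Epithelial transcripts set cKO replicate 1 apart. The 18 epithelial markers summed to 1285, 639, 161 and 59.8 FPKM in cKO replicates 1 to 4, against 75.7 to 164 FPKM in WT libraries, and none of them was at 0 throughout. In bulk samples, fewer cells of a type and less RNA per cell cannot be told apart.

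No difference between cKO and WT stromal cells passed the tests in any of the 9 genes, and the cKO and WT values overlapped for each of them. In limma (on log2(FPKM + 1), adjusted over the 11506 genes whose mean FPKM reached 1), 8 of the 9 were tested, 4 had a higher and 4 a lower mean of log2 values in cKO (47.4% and 52.6% of all tested genes), and 0 were called at an adjusted p under 0.05 (adjusted p = 0.910 to 0.998), 0 also at an unadjusted p under 0.05 with all libraries. Over all tested genes 0.00869% were called, which is 1 gene, and 5.41% had an unadjusted p under 0.05 (2.37% higher and 3.03% lower in cKO). The log2 differences of the 8 genes ran from -0.10 for Ifnar1 to 0.18 for Socs1 with a median of 0.01, beside a median of -0.0065 over all tested genes. The lowest bound of their 95% intervals was -0.26, for Ifnar1, and the highest was 0.44, for Socs1. The plot of the 9 genes by library shows these values.

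**Figure D1:**
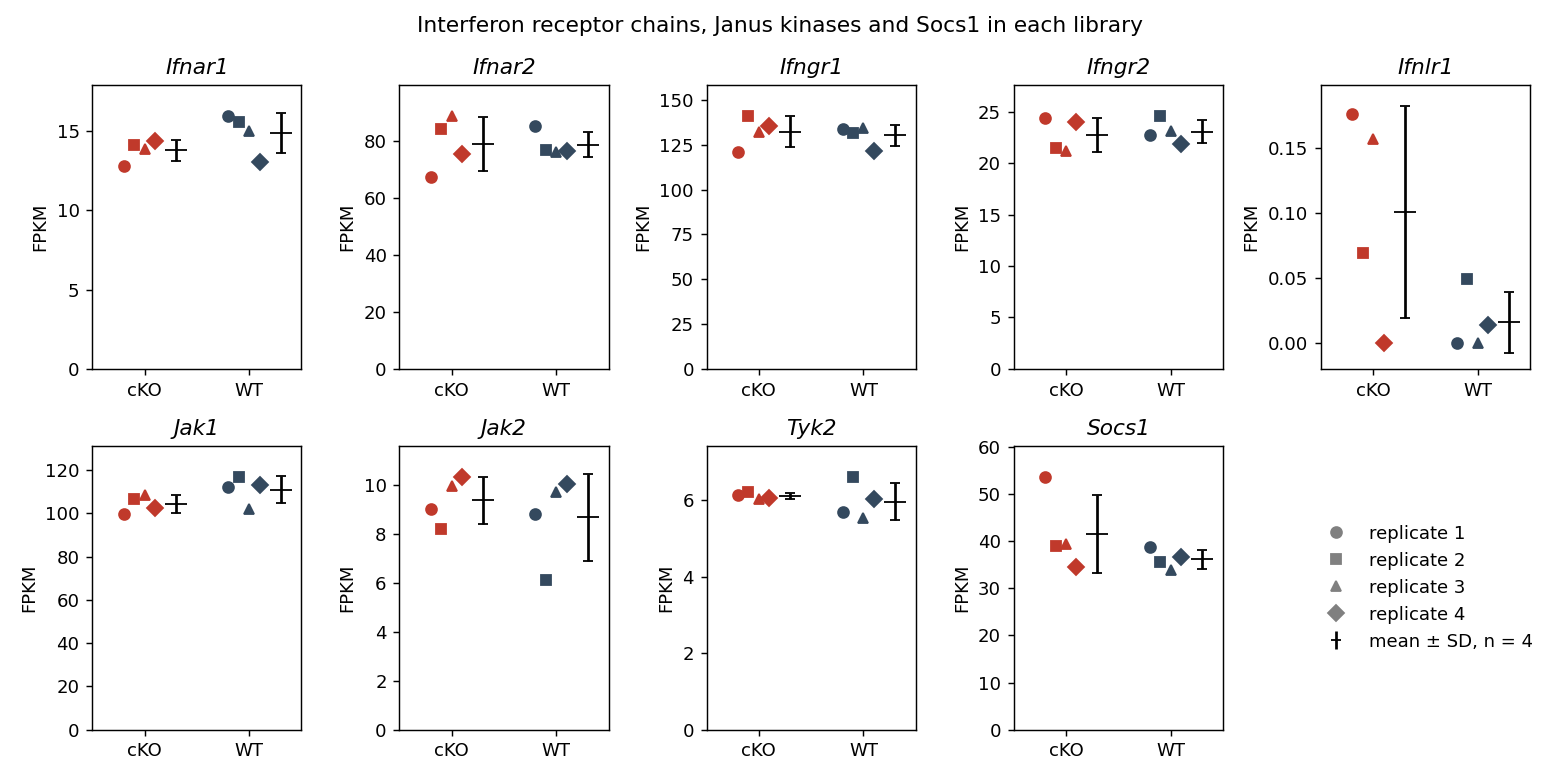
FPKM of each of the 9 genes in every library, on axes of their own that start at 0 or, for Ifnlr1, just below it. Symbols give the replicate number, cKO libraries are red and stand left of the dark WT libraries, and bars are the mean ± SD of 4 libraries. The groups overlap for every gene, with Socs1 in cKO replicate 1 (53.6 FPKM) and Jak2 in WT replicate 2 (6.13 FPKM) apart from their group.

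Levels spanned a wide range and their order was nearly the same in every library. Ifngr1 was highest (mean 131 FPKM over the 8 libraries), followed by Jak1 (108), Ifnar2 (78.9), Socs1 (38.9), Ifngr2 (22.9), Ifnar1 (14.3), Jak2 (9.04), Tyk2 (6.04) and Ifnlr1 (0.0581). Each gene was above the next in 8 of 8 libraries, except that Jak2 was above Tyk2 in 7 of 8. Jak2 and Tyk2 were also the only neighbours in this order whose ranges over the 8 libraries overlapped. Ifngr1 stood at the 94.4th percentile of the tested genes by mean FPKM and Tyk2 at the 36.5th. These levels are of RNA from the sorted population as a whole.

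**Figure D2:**
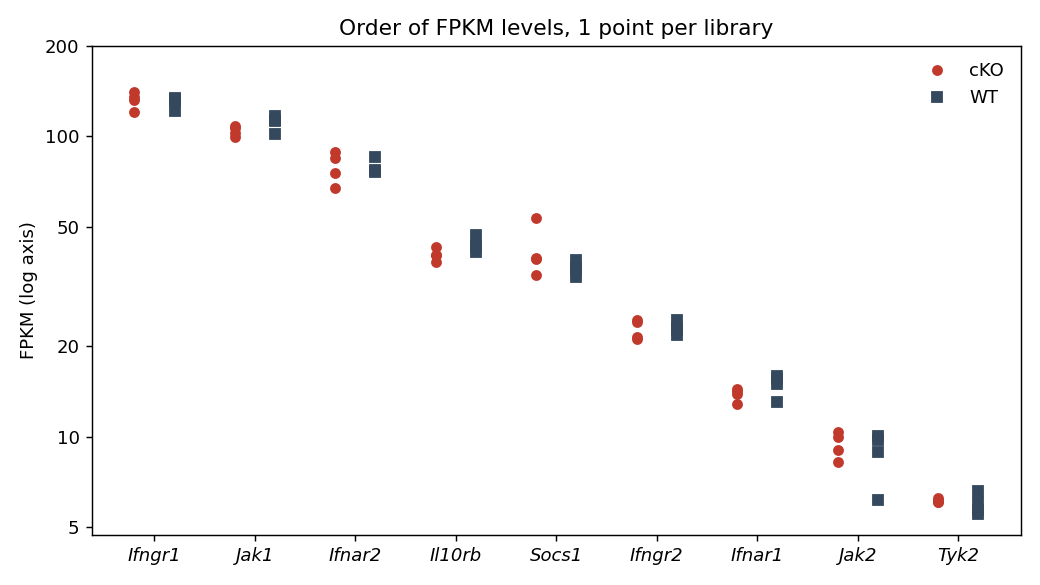
FPKM on a log axis of 8 of the 9 genes and of Il10rb in each library, cKO libraries as red circles and WT libraries as dark squares; Ifnlr1, listed at 0 in 3 libraries, is left out. Means run from Ifngr1 (131) to Tyk2 (6.04). Jak2 is below Tyk2 in WT replicate 2. Il10rb is above Socs1 in every library except cKO replicate 1. The cKO and WT points of each gene overlap.

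Of the type I receptor, Ifnar2, the chain that binds interferon most tightly, was the more abundant and Ifnar1 the scarcer. Ifnar1 (chromosome 16, 91485238 to 91507441, mm10, plus strand) was at 12.8, 14.1, 13.8 and 14.3 FPKM in cKO replicates 1 to 4, against 15.9, 15.5, 15.0 and 13.1 FPKM in WT replicates 1 to 4. Only 1 cKO library lay below all WT libraries, and WT replicate 4 lay below 3 of the cKO libraries. The group means were 13.8 ± 0.683 FPKM in cKO and 14.9 ± 1.27 in WT (n = 4 each, SD; exact two-sided permutation p = 0.171). The log2 difference was -0.10 in limma (SE 0.07, 95% interval -0.26 to 0.06, adjusted p = 0.929).

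Ifnar2 (chromosome 16, 91372783 to 91405589, plus strand) was at 67.5, 84.5, 88.8 and 75.5 FPKM in cKO replicates 1 to 4, against 85.4, 77.2, 76.2 and 76.6 FPKM in WT replicates 1 to 4. The cKO libraries held both the lowest and the highest value, so that their spread was wider (SD 9.50 FPKM in cKO and 4.39 in WT) around nearly equal means (79.1 FPKM in cKO and 78.8 in WT; exact permutation p = 1.0). The log2 difference was -0.0018 (95% interval -0.19 to 0.19, limma adjusted p = 0.998). Within a library Ifnar2 exceeded Ifnar1 by 4.96 to 6.42 times, and the log2 ratio of Ifnar1 to Ifnar2 (here and in the other log2 ratios with 1 added to each FPKM) was -2.43 ± 0.141 in cKO and -2.33 ± 0.0993 in WT libraries (exact permutation p = 0.286; 0.429 adjusted over the 6 ratios computed). Their difference of -0.099 was -0.044 without cKO replicate 3. The value of Ifnar2 sums its transcripts, which in mouse include one for a soluble form.

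Promoter sequence was searched for the letters bound by the factors of this pathway, GAAA repeated after any 2 bases for the interferon-stimulated response element and TTCNNNGAA for the interferon-gamma activated site, on both strands in the 250 bases before each RefSeq gene start (GRCm38.p6, the build also called mm10). All 9 genes matched a RefSeq promoter, 1 of them with each motif. The Ifnar2 promoter (chr16:91372533-91372782, plus strand) held TTCNNNGAA at 214 to 206 bases before the start, as did 7.02% of the 32851 promoters. The Socs1 promoter (chr16:10785537-10785786, minus strand) held the repeated GAAA at 83 to 74 and at 77 to 68 bases before the start, with the first bases of the second match lying inside the first. One match or more was present in 2.98% of promoters and at least 2 in 0.180%. A match describes letters and is not a bound site. Both promoters are shown 5′ to 3′ with the matches in capitals, as the only ones of the 9 that held either motif.
Ifnar2: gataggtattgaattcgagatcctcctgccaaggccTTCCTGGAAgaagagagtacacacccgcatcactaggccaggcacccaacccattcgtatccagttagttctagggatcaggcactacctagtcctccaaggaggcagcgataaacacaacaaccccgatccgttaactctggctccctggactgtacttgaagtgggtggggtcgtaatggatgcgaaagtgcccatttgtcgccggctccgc
Socs1: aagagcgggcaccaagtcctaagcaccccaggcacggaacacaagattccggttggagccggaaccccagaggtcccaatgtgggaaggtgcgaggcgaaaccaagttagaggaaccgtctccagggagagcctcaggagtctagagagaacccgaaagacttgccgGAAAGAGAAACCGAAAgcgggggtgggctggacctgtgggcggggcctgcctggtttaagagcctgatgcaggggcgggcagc

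Of the type II receptor, the ligand-binding chain Ifngr1 (chromosome 10) was the most abundant of the 9 genes. It was at 121, 141, 132 and 136 FPKM in cKO replicates 1 to 4, against 134, 132, 134 and 121 FPKM in WT replicates 1 to 4. The lowest library of each group was at 121. Of the cKO libraries 2 lay above all WT libraries and 1, by a narrow margin, below them all (132 ± 8.50 FPKM in cKO and 130.1 ± 5.95 in WT, n = 4 each, SD; exact permutation p = 0.657). The log2 difference was 0.02 (95% interval -0.11 to 0.15, limma adjusted p = 0.985).

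Ifngr2, the chain that brings in Jak2, was at 24.4, 21.5, 21.2 and 24.0 FPKM in cKO replicates 1 to 4, against 22.7, 24.5, 23.2 and 21.8 FPKM in WT replicates 1 to 4. No cKO library was above all WT libraries and 2 were below them all. The means were 22.8 ± 1.67 FPKM in cKO and 23.1 ± 1.14 in WT (n = 4 each, SD; exact permutation p = 0.771), and the log2 difference was -0.02 (95% interval -0.16 to 0.13, limma adjusted p = 0.990). Ifngr1 exceeded Ifngr2 by 4.95 to 6.55 times within a library, and the log2 ratio did not differ beyond its spread (2.49 ± 0.174 in cKO and 2.45 ± 0.0584 in WT; exact permutation p = 0.686, also after adjustment over the 6 ratios). In both receptors, then, the chain that binds Jak1 was the more abundant, by about the same factor.

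Of the type III receptor, the specific chain Ifnlr1 (chromosome 4), which is known mainly from epithelial cells, was close to absent, while the shared chain Il10rb was well expressed. Ifnlr1 was at 0.176, 0.0693 and 0.156 FPKM in cKO replicates 1 to 3 and listed at 0 in cKO replicate 4, against 0.0493 and 0.0139 FPKM in WT replicates 2 and 4 and listed at 0 in WT replicates 1 and 3. Low FPKM values lay on steps of single fragments. On that scale the values stood for 13, 5, 12 and 0 fragments in cKO replicates 1 to 4 and 0, 3, 0 and 1 fragments in WT replicates 1 to 4 (each within 0.005 of a whole number). Scaled to depth, the sums of 30 fragments in cKO and 4 in WT stood in a ratio of 7.01 (exact 95% interval 2.47 to 27.4, for counting error only). Over libraries the means were 0.1004 ± 0.0814 FPKM in cKO and 0.0158 ± 0.0233 in WT (n = 4 each, SD; exact permutation p = 0.143). The groups overlapped, with 0 fragments in cKO replicate 4.

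Ifnlr1 fell under the minimum level for the limma test. Without that filter its log2 difference was 0.11 (adjusted p = 0.914), and with a pseudocount of 0.1 as well it was 0.70 (adjusted p = 0.921). Epithelial markers moved with part of this pattern: their mean log2 value was 5.40, 4.15, 2.57 and 1.70 in cKO replicates 1 to 4 and 2.75, 2.48, 1.93 and 2.69 in WT replicates 1 to 4. Of these 18 markers, 18 had a higher mean of log2 values in cKO (against 47.4% of all tested genes) and 0 were called. In cKO replicate 3, with 12 fragments of Ifnlr1, the marker mean was below that of WT replicate 1, with 0 fragments. The part of epithelial RNA in the Ifnlr1 values was not tested.

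Il10rb, the partner of Ifnlr1 and of Il10ra, was at 40.1, 42.9, 40.3 and 38.2 FPKM in cKO replicates 1 to 4, against 47.0, 43.1, 42.8 and 41.2 FPKM in WT replicates 1 to 4. Of the cKO libraries 3 lay below all WT libraries, and cKO replicate 2 lay among them. The means were 40.4 ± 1.94 FPKM in cKO and 43.5 ± 2.44 in WT (n = 4 each, SD; exact permutation p = 0.0857), with a log2 difference of -0.10 (95% interval -0.23 to 0.02, limma adjusted p = 0.897). The log2 ratio of Ifnlr1 to Il10rb, with 1 added to each FPKM, was -5.24 ± 0.110 in cKO and -5.45 ± 0.0930 in WT, without overlap (exact permutation p = 0.0286, the smallest that 4 against 4 libraries allow; 0.114 adjusted over the 6 ratios). With Ifnlr1 at 0.176 FPKM or less, the added 1 made up most of the upper term, and neither gene alone separated the groups. The ratio was -5.29 in cKO replicate 4, with 0 fragments of Ifnlr1, and -5.39 in WT replicate 2, with 3 fragments. The absence of overlap thus does not describe Ifnlr1 alone. With 0.1 added instead the exact permutation p was 0.0857, and in both versions the ratio combines a scarce chain with an abundant one.

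Of the kinases, Jak1, which serves all 3 receptors, was far above the others. Jak1 (chromosome 4, 101152367 to 101265282, minus strand) was at 99.5, 107, 108 and 103 FPKM in cKO replicates 1 to 4, against 112, 117, 102 and 113 FPKM in WT replicates 1 to 4. All cKO libraries lay below 3 of the WT libraries, and WT replicate 3 lay among them. The means were 104 ± 4.01 FPKM in cKO and 111 ± 6.43 in WT (n = 4 each, SD; exact permutation p = 0.171), with a log2 difference of -0.09 (SE 0.05, 95% interval -0.21 to 0.03, limma adjusted p = 0.910).

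Tyk2, the kinase carried by Ifnar1 and Il10rb, was the scarcest of the 3. It was at 6.13, 6.23, 6.03 and 6.05 FPKM in cKO replicates 1 to 4, against 5.68, 6.60, 5.54 and 6.05 FPKM in WT replicates 1 to 4. The cKO values lay within the range of the WT values and varied less (SD 0.0880 FPKM in cKO and 0.474 in WT), and the log2 difference was 0.03 (95% interval -0.13 to 0.19, limma adjusted p = 0.983). Jak1 exceeded Tyk2 by 16.2 to 19.8 times within a library. The log2 ratio of Jak1 to Tyk2, lowered by the added 1 because Tyk2 is scarce, was 3.89 ± 0.0582 in cKO and 4.01 ± 0.0579 in WT (exact permutation p = 0.0571; 0.114 adjusted over the 6 ratios), with cKO replicate 3 above WT replicate 2.

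Jak2, the kinase of Ifngr2, varied most of the 3 kinases. It was at 9.04, 8.21, 9.98 and 10.3 FPKM in cKO replicates 1 to 4, against 8.85, 6.13, 9.75 and 10.1 FPKM in WT replicates 1 to 4. The difference of the means (9.39 ± 0.960 FPKM in cKO and 8.70 ± 1.78 in WT, n = 4 each, SD; exact permutation p = 0.6) rested on WT replicate 2, without which the log2 difference of 0.12 (95% interval -0.19 to 0.42, limma adjusted p = 0.957) was -0.02. The log2 ratio of Jak1 to Jak2 was 3.35 ± 0.148 in cKO and 3.55 ± 0.348 in WT (exact permutation p = 0.371; 0.446 adjusted over the 6 ratios), and the difference of -0.20 was -0.039 without WT replicate 2. Jak3, the Janus kinase of lymphoid cytokine receptors, was at 0.523 to 1.39 FPKM in cKO and 0.915 to 1.23 in WT libraries.

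Socs1 had the largest difference of the tested members, and 1 cKO library made most of it. Socs1 (chromosome 16, 10782240 to 10785536, minus strand) was at 53.6, 39.0, 39.4 and 34.4 FPKM in cKO replicates 1 to 4, against 38.7, 35.5, 33.9 and 36.6 FPKM in WT replicates 1 to 4. Of the cKO libraries 3 lay above all WT libraries, and of these replicates 2 and 3 only narrowly. The means were 41.6 ± 8.29 FPKM in cKO and 36.2 ± 2.01 in WT (n = 4 each, SD; exact permutation p = 0.229), a difference of 14.9%. The log2 difference was 0.18 (SE 0.12, 95% interval -0.08 to 0.44, limma adjusted p = 0.920). Without cKO replicate 1 the cKO mean was 37.6 ± 2.75 FPKM, 3.89% above WT, and the log2 difference 0.05 (adjusted p = 0.955). With the epithelial marker mean as a covariate it was 0.03 (adjusted p = 0.978). The log2 ratio of Socs1 to Jak1 was -1.32 ± 0.30 in cKO and -1.59 ± 0.0745 in WT (exact permutation p = 0.0571; 0.114 adjusted over the 6 ratios). Its difference of 0.27 was 0.12 without cKO replicate 1.

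The genes whose pattern over the 8 libraries was most like that of Socs1 were Muc2, the mucin of goblet cells, and Klk1, a kallikrein of glandular epithelium. Likeness was the mean absolute difference of log2 values after centring and dividing by the SD, and it was 0.105 for Muc2 and 0.151 for Klk1, against a median of 1.09 over the 11505 other genes. Muc2 was at 11.2, 1.64, 1.30 and 0.485 FPKM in cKO replicates 1 to 4, against 1.08, 0.690, 0.334 and 0.950 FPKM in WT replicates 1 to 4. Socs1 and Muc2 ranked the WT libraries alike and the cKO libraries alike, except that cKO replicates 2 and 3 changed places. Of the 18 epithelial markers, 8, with Muc2 among them, were within the 100 genes most like Socs1, out of 11505 compared. Without cKO replicate 1 only 1 of the 16 then tested was among the nearest 100. The nearest gene was then Mmaa (0.137), Muc2 fell under the minimum level, and Klk1 was in place 6 (0.260). Myeloid markers were likewise highest in cKO replicate 1, with a mean log2 value of 3.29 there, 2.37 to 2.52 in the other cKO libraries and 2.24 to 2.62 in WT libraries. The same library also had the highest levels of blood endothelial (1.57), lymphatic endothelial (1.18), smooth muscle (2.87) and enteric glial markers (0.46), and the lowest level of fibroblast markers (10.1, against 10.1 to 10.4 in the other cKO libraries and 10.2 to 10.3 in WT libraries). The part of these cell types in the Socs1 values was not tested beyond these comparisons. The plot against epithelial markers shows Socs1 at 34.4 FPKM in cKO replicate 4 and 33.9 in WT replicate 3. These are the libraries of each group with the fewest epithelial transcripts. Socs1 was at 39.0 FPKM in cKO replicate 2 and 39.4 in cKO replicate 3, at epithelial marker levels of 4.15 and 2.57.

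**Figure D3:**
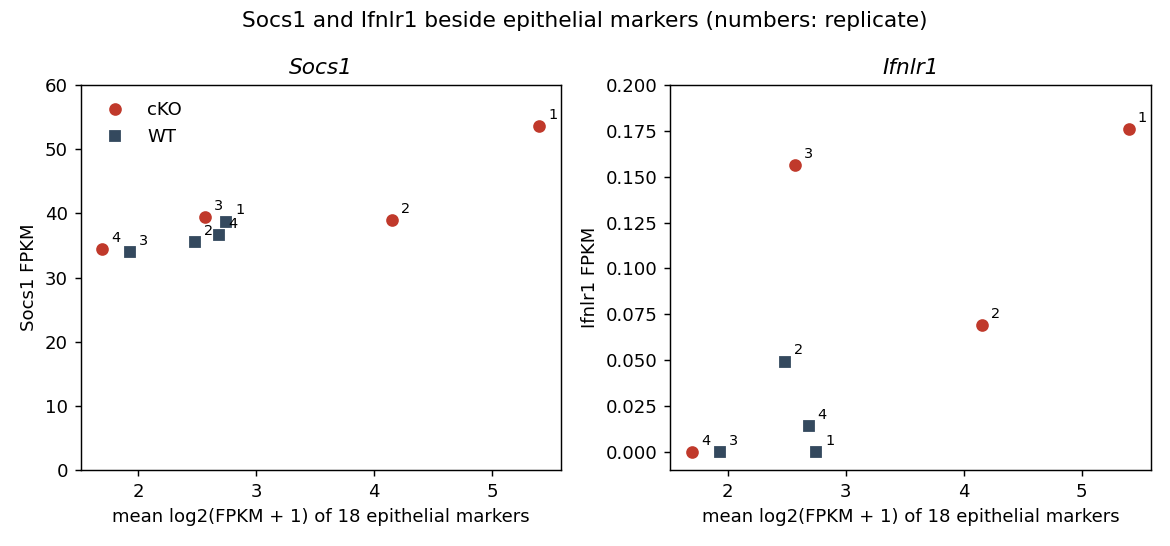
FPKM of Socs1 (left) and Ifnlr1 (right) against the mean log2(FPKM + 1) of 18 epithelial markers, 1 point per library with its replicate number, cKO as red circles and WT as dark squares. Socs1 is highest in cKO replicate 1, which also has the most epithelial transcripts (5.40). It is alike in cKO replicates 2 and 3 (39.0 and 39.4 FPKM) at marker levels of 4.15 and 2.57. Ifnlr1 in cKO replicate 3 is high (0.156) at a marker level of 2.57.

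Downstream of the receptors, a list of 19 interferon response genes, chosen with earlier results of these data known, had mostly higher means in cKO. Of 16 tested, 15 had a higher mean in cKO (against 47.4% of all tested genes), with a median log2 difference of 0.40. In limma 9 had an unadjusted p under 0.05, each higher in cKO (against 2.37% of all tested genes), and 0 were called. Markers of some other cells were also higher in cKO as a group. The response genes had their highest mean log2 value in cKO replicate 2 (4.17) and their lowest in cKO replicate 1 (3.82). Blood endothelial markers were lowest in cKO replicate 2 and highest in cKO replicate 1. Blood endothelial markers had a mean log2 value of 0.99 to 1.57 in cKO libraries and 0.64 to 0.88 in WT libraries, with 4 of 4 tested higher in cKO. Lymphatic endothelial markers had 0.71 to 1.18 in cKO libraries and 0.16 to 0.61 in WT libraries. Only 1 of 6 was abundant enough to test, Ccl21a (4.81 to 11.9 FPKM in cKO libraries and 0.000329 to 4.49 in WT libraries). The mean level of neither set overlapped between the groups. Of the lymphatic markers, Lyve1 and Prox1 overlapped, whereas Flt4, Mmrn1, Reln and Ccl21a did not. Ccl21a, the most abundant, weighed most in the difference of the lymphatic mean. The sort left out cells with CD31, an endothelial surface protein. Its gene Pecam1 was at 0.968 to 2.37 FPKM in cKO libraries and 0.594 to 0.990 in WT libraries. Plvap, the most abundant of the blood endothelial markers, was at 4.37 to 13.1 FPKM in cKO libraries and 2.96 to 5.08 in WT libraries. Cdh5, the scarcest, was at 0.0425 to 0.126 FPKM in cKO libraries and 0.0165 to 0.0560 in WT libraries. Smooth muscle markers were higher in the mean in 8 of 8 and myeloid markers in 9 of 11, with groups that overlapped in level. Over all tested genes 47.4% had a higher mean in cKO, and 0 markers of these lists were called. The part of these cell types in the response genes was not tested, and the order of 4 libraries does not test it. In 7 of the 16 response genes all cKO libraries lay above all WT libraries, against 1.36% of all tested genes. Among them were Usp18, which detaches Jak1 from Ifnar2 (10.2 ± 1.45 FPKM in cKO and 7.01 ± 0.628 in WT, SD, n = 4 each; adjusted p = 0.761), Igtp, an interferon-inducible GTPase (23.8 FPKM in cKO and 14.1 in WT), and B2m, which pairs with class I heavy chains (1162 FPKM in cKO and 881 in WT). Without cKO replicate 1, 15 of 16 were still higher and 8 of 16 did not overlap, against 3.19% of all genes then tested, and Igtp was called. Irf1 (316 FPKM in cKO and 333 in WT) and Cxcl10 (119 FPKM in both groups), both abundant, had log2 differences of -0.07 and 0.02 in that order. None of the 8 tested receptor, kinase and Socs1 genes had groups without overlap, where the background was 3.26% in either direction and 1.9% for lower values in cKO.

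Of the STAT genes and Irf9, 7 were tested, 4 had a higher and 3 a lower mean in cKO (median 0.10) and 0 were called. Stat2 had 14.2 ± 0.887 FPKM in cKO and 12.4 ± 1.39 in WT (adjusted p = 0.897), and Irf9 had 25.8 ± 3.37 FPKM in cKO and 23.4 ± 1.09 in WT (adjusted p = 0.925). Stat3, the main factor downstream of interleukin-10, had 83.5 ± 2.34 FPKM in cKO and 88.4 ± 4.92 in WT (SD, n = 4 each; limma adjusted p = 0.920).

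**Figure D4:**
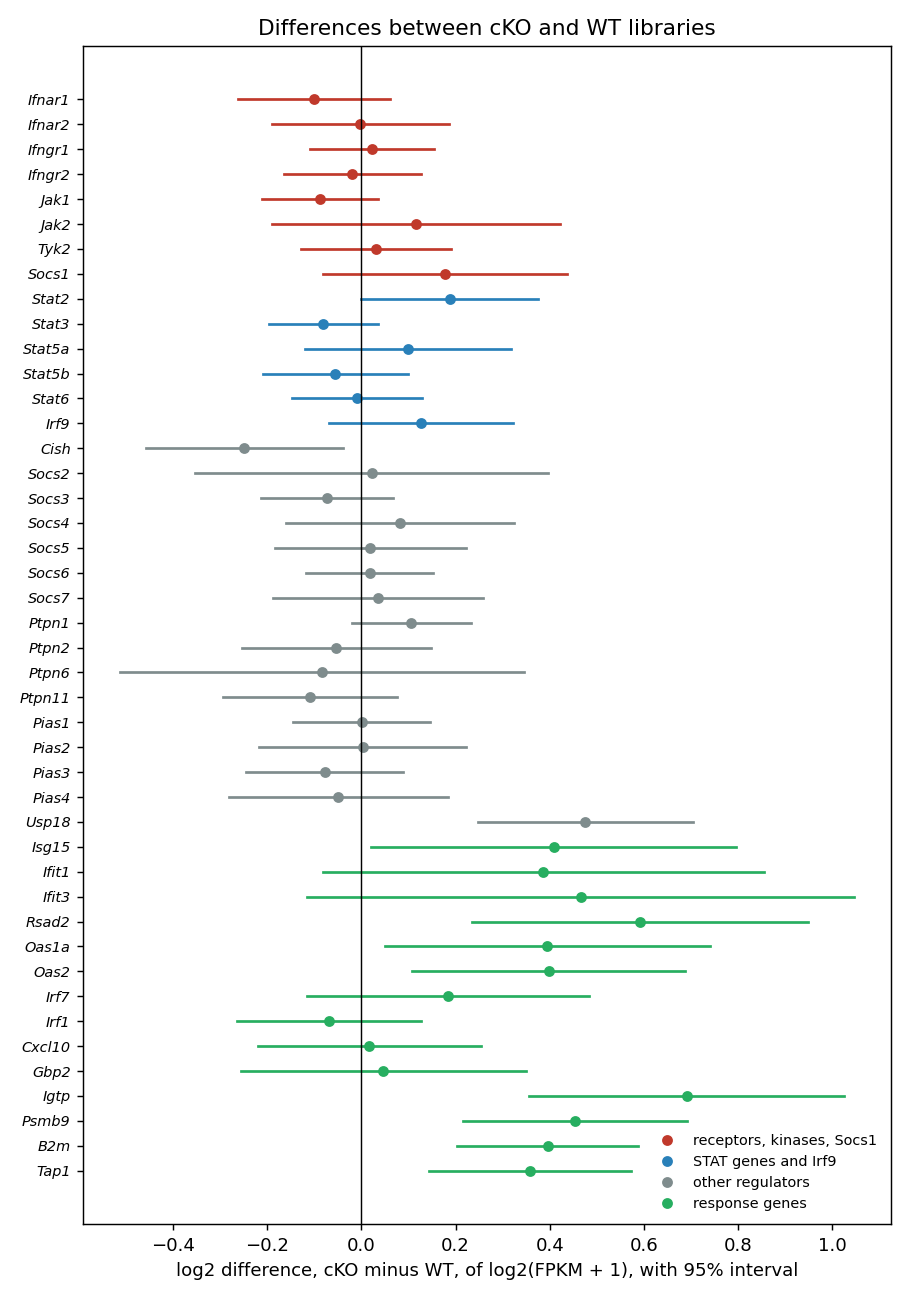
Differences of log2(FPKM + 1), cKO minus WT, with 95% limma intervals for the 8 tested receptor, kinase and Socs1 genes (red), 6 of the STAT and Irf9 genes (blue), other regulators (grey) and response genes (green). The red intervals all include 0 and lie between -0.26 and 0.44, while 9 of the 15 response genes shown (Usp18 in grey among them) have intervals above 0.

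Of 16 other regulators of the kinases, 9 had a higher and 7 a lower mean in cKO (median 0.0018, 0 called). Cish, a SOCS family member induced by STAT5, was at 23.9, 17.4, 18.9 and 20.6 FPKM in cKO replicates 1 to 4, against 24.6, 25.3, 24.6 and 21.7 FPKM in WT replicates 1 to 4 (log2 difference -0.25, unadjusted p = 0.0250 and adjusted p = 0.897 in limma). Socs3, the inhibitor of the gp130 receptors, was the most abundant SOCS gene, at 314 ± 16.4 FPKM in cKO and 330.3 ± 24.2 in WT (adjusted p = 0.931). Ptpn1, a phosphatase of Jak2 and Tyk2, had 15.0 ± 0.470 FPKM in cKO and 13.8 ± 0.646 in WT (adjusted p = 0.897).

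Of the other cytokine receptor chains that use Janus kinases, listed with Jak3, 14 were tested, and 13 had a lower mean of log2 values in cKO, with a median of -0.09. Over all tested genes 52.6% had a lower mean. None was called, and 0 had an unadjusted p under 0.05. Il6st, the gp130 chain, was at 145 ± 16.6 FPKM in cKO and 155 ± 14.0 in WT (adjusted p = 0.931), Il6ra at 16.5 ± 1.86 FPKM in cKO and 18.7 ± 1.81 in WT (adjusted p = 0.897) and Crlf2, the receptor chain for Tslp, at 2.60 ± 0.313 FPKM in cKO and 3.02 ± 0.480 in WT (adjusted p = 0.929). The other was Il20rb (1.60 ± 0.296 FPKM in cKO and 1.12 ± 0.290 in WT, adjusted p = 0.897).

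The ligands of the 3 receptors were at the limit of detection. Of 21 interferon genes 18 were listed at 0 in all 8 libraries. Ifnb1 stood for 1 fragment in the cKO libraries and 4 in the WT libraries, a depth-scaled ratio of 0.234 with an exact counting interval of 0.0047 to 2.36. Ifng, made mainly by leukocytes, was at 0 to 0.148 FPKM in cKO and 0 to 0.106 in WT libraries.

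On chromosome 16 the genes Ifnar2, Il10rb, Ifnar1 and Ifngr2 follow each other on the plus strand within 193 kb of mm10, with 0.57 kb between Ifnar2 and Il10rb. Their mean levels were 78.9, 42.0, 14.3 and 22.9 FPKM in that order. Of the 9 genes listed from this stretch, 8 were tested and 5 had a lower mean in cKO (median -0.01, 0 called). The neighbour Gart, an enzyme of purine synthesis, was at 9.76 ± 1.12 FPKM in cKO and 8.57 ± 0.274 in WT (adjusted p = 0.897) and Tmem50b at 24.1 ± 3.47 FPKM in cKO and 22.8 ± 2.29 in WT (adjusted p = 0.965).

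The patterns of the other members over the 8 libraries were each close to that of some other gene. The nearest gene was Fut8, a fucosyltransferase, for Ifnar1 (0.122), the ubiquitin ligase Trip12 for Ifnar2 (0.184), Rnf144a for Ifngr1 (0.236) and 3110082I17Rik for Ifngr2 (0.151). It was Canx, a chaperone of the endoplasmic reticulum, for Jak1 (0.166), the small GTPase Rap2a for Jak2 (0.197) and 3110070M22Rik for Tyk2 (0.210). These values compare with medians of 1.06 to 1.10 over all tested genes, and with 8 libraries and 11506 genes they are descriptions of these libraries. No receptor chain had a kinase or another chain among its 2 nearest genes.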

How the data were processed

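Each library is 1 table of FPKM values, deposited by the authors with gene symbols. The submitters' processing notes name Cufflinks 2.2.1 with Cuffdiff, TopHat2 2.1.1 with Bowtie2 2.3.5.1, SAMtools 0.1.18 and the mm10 build. The sources used here do not give settings or annotation. Per the labels' protocols, cDNA was made with SMART-Seq, and per the series' design text each library is 1 mouse. Positions are those of GENCODE M21 (GRCm38), promoters those of RefSeq.

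The 11506 genes whose mean FPKM reached 1 were tested as log2(FPKM + 1) with limma 3.58.1 in R 4.3.3 (trend, 2 groups, Benjamini-Hochberg threshold 0.05). This scale understates the change of low genes. Single genes and 6 within-library ratios were tested by two-sided exact permutation (70 arrangements, smallest p 0.0286). Python 3.11.15 was used for these and for plots. Depth came from whole-number steps of FPKM values under 0.3 (relative depth 0.858 to 1.08) and from 72 genes with 1 annotated transcript of at least 4000 bases (quartiles 14000000 and 17900000 fragments). The limma fit was tested on simulated data.

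The members and lists were chosen with earlier results of these data known. Named genes were the members and some of those of each list with the smallest p or highest level. The 2 most similar patterns were named for Socs1 and the nearest for the other tested members. Some genes, such as Cdh5 and Pecam1, were named outside this rule. The value of 1 gene of the lists is not reported here, although list counts include it.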

Additional observations from a re-analysis of the deposited data

Results flagged for a closer look

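Of 32 groups of 4 libraries examined (the 9 genes, Il10rb and the 6 ratios in each group), 1 held a library far from the other 3 by Dixon's 95% criterion. Ifnar2 in WT replicate 1 was at 85.4 FPKM, against 76.2 to 77.2 FPKM in the other WT libraries. In the cKO libraries Ifnar2 ranged from 67.5 to 88.8 FPKM, so that this value lay within the cKO range.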

How the results depend on the processing

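No member was called under any of the 21 alternatives (other pseudocounts, filters, scalings, eBayes settings, array weights, replicate block, epithelium covariate and each library left out). The combination of no filter and pseudocount 0.1, and the list counts and Socs1 patterns without cKO replicate 1, were chosen after seeing the data. Ifnar1, Jak1, Tyk2 and Socs1 kept the direction of their log2 difference throughout, and so did Ifnlr1 where fitted. Their sizes moved: Ifnar1 reached -0.16 without WT replicate 4 (unadjusted p = 0.038, adjusted 0.787 in limma), Jak1 -0.13 without WT replicate 3 (0.035, adjusted 0.939) and Socs1 0.26 without cKO replicate 4 (0.043, adjusted 0.919), and Tyk2 ran from 0.0016 to 0.074. Genes called numbered 1, and 1 to 4 with a library left out (4 without cKO replicate 1, 3 without WT replicate 3, 2 without cKO replicate 2). The log2 difference of Ifnar2 turned to 0.024 with quantile normalization, 0.033 with rescaling to a fixed sum, 0.035 with array weights and 0.039 with the epithelium covariate, and that of Ifngr2 to 0.015 with rescaling to a fixed sum. The cause was not tested. With each library left out it ran from -0.060 to 0.071 for Ifnar2, -0.010 to 0.066 for Ifngr1, -0.051 to 0.014 for Ifngr2 and -0.025 to 0.19 for Jak2. The FPKM difference ran from -3.00 to 4.10 for Ifnar2, -0.767 to 6.03 for Ifngr1, -0.821 to 0.247 for Ifngr2, -0.160 to 1.15 for Jak2 and -0.0015 to 0.353 for Tyk2. The log2 ratio difference ran from -0.014 to 0.12 for Ifngr1/Ifngr2 and 0.17 to 0.26 for Ifnlr1/Il10rb (p = 0.0571 each, the smallest exact p of 3 against 4). For Ifnlr1/Il10rb it was 0.22 in all libraries, 0.81 with a pseudocount of 0.1 (exact permutation p = 0.0857), and 0.22 with the replicate block (exact sign-flip p = 0.125, the smallest possible). Otherwise the replicate block changed no call (1 gene called). Same-numbered libraries shared only a number: their deviations correlated by 0.018 to 0.091. No WT library correlated best with the cKO library of its own number, and of the cKO libraries only replicate 1 did so. The members' median was 0.045 with rescaling to a fixed sum and -0.013 to 0.041 with a library left out, and that of the chromosome 16 neighbours 0.024 with rescaling. Depth limits statements on Ifnlr1 and the interferon genes.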
